A study of Mus musculus with 18 samples.

Results

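The 10 genes described here belong to the Notch pathway, out of 54232 genes counted in mouse round spermatids (RS). They are the ligands Jag1 and Jag2, the receptors Notch1, Notch2, Notch3 and Notch4, the ligand ubiquitin ligase Neurl1a, the DNA-binding effector Rbpj, and the target genes Hes1 and Hey1. These genes were chosen by name, with their levels in WT, KO and KI RS already known: Jag1 lower and Notch1 higher in both mutants. Their differences between each mutant and WT are therefore given as a description: no p is printed for them, and the number called stands only beside the share of all genes called. Of the 10 genes, 9 passed edgeR's filter on low counts, as did 21058 genes in all, and Notch3 did not.

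RS are haploid germ cells that have finished meiosis and not yet begun to elongate. They were isolated from the testes of mice aged 75 to 85 days that were WT, GRTH-KO or GRTH-KI, and total RNA was made into libraries with no polyA selection, 6 per genotype. KO mice lack GRTH, the testis RNA helicase encoded by Ddx25. KI mice carry a human GRTH gene with a missense mutation and have no phosphorylated GRTH. Both mutants stop at the RS stage, so the cells that follow RS are missing from their testes. The sources used here do not say whether libraries came from separate animals, so each p measures the spread between libraries only.

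In Notch signalling a ligand on one cell binds a receptor on its neighbour. Ubiquitin ligases such as Mindbomb and Neuralized act on the ligand so that it is pulled into the sending cell, and this exposes the receptor to ADAM proteases and then to gamma-secretase. The freed intracellular domain enters the nucleus, joins RBPJ and Mastermind-like coactivators, and switches on genes of the Hes and Hey families of repressors, which without the domain are held down by corepressors on RBPJ. In the testis Jag1 and the receptors have been studied mainly between Sertoli cells and germ cells.

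The libraries held between 18766971 and 26776555 counts on genes. Levels are given as normalized CPM, counts scaled to the size of the library with edgeR's TMM factors. Ddx25 lay between 538 and 607 CPM in WT and between 47.7 and 90.9 CPM in KO. In 5 KI libraries it lay between 0.0456 and 0.519 CPM. The library labelled KI 4 had 56.9 CPM of Ddx25, a value among those of KO, so the KI fold changes of the 9 genes and the number of Notch genes called for any change are also given without that library. Some pairs of libraries were closer to each other than the rest, with an index of their difference under 4. Counting noise alone gives an index of about 1. These pairs were KO 2 with the library labelled KI 4 (1.59), and 6 pairs within a genotype (2.05 to 3.24), which may not be independent replicates. The limit of 4 was a choice, and the next pair stood at 4.73. All 8 RS markers were detected in every genotype, with summed levels of 868 to 1255 CPM in WT, 724 to 1228 CPM in KO and 641 to 924 CPM in KI. By edgeR's test for any change (adjusted p under 0.1 over all genes), 1 of the 8 was lower in KO and 4 were lower in KI, and none was higher in either.

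The start sites of the 3 genes that differed most from WT are shown because Jag1 and Neurl1a were both lower in the mutants and Notch1 was higher. Each sequence holds 300 bases, 250 before and 50 after the RefSeq start on GRCm38.p6, written 5′ to 3′ on the strand of the gene. Capitals mark the cyclic AMP response element core TGACG or its complement CGTCA, with the full palindrome TGACGTCA in Neurl1a. The core of the RBPJ site, TGGGAA, was searched on both strands too.
Jag1, chr2:137116471-137116770, minus strand: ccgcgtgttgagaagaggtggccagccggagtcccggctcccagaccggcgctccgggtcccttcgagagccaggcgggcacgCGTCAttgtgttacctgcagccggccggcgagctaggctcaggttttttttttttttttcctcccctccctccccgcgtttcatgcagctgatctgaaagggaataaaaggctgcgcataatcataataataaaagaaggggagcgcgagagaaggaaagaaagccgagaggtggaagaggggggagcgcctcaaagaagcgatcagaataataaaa
Neurl1a, chr19:47178570-47178869, plus strand: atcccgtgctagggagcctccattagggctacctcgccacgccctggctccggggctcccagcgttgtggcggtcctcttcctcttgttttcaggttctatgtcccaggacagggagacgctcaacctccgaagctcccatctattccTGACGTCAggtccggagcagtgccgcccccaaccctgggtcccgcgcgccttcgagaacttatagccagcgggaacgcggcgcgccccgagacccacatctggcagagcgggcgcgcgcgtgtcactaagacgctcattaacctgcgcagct
Notch1, chr2:26503773-26504072, minus strand: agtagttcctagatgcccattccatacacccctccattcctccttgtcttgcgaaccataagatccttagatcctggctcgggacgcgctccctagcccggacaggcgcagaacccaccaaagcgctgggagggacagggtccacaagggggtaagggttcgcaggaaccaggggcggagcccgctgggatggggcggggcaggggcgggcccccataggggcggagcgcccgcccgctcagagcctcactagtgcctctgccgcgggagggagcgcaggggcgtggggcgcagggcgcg
The full palindrome stood 102 bases before the start of Neurl1a, and 1.79% of the 32851 promoters in the RefSeq table hold it. The core alone stood in Jag1, on the opposite strand, and 20.8% of all promoters hold the core on either strand, a full palindrome included. No RBPJ core was found in these 3 windows, whereas 25.6% of all promoters hold one. Among the 8 genes found in the promoter table, Notch3, with no detectable difference, also held the TGACG core, on the opposite strand. Only Rbpj held an RBPJ core, in both of its listed promoters. A match is a description of letters and was not tested as a binding site.

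Jag1, a transmembrane ligand of Notch receptors, was lower in every mutant library than in any WT library. Jag1 (ENSMUSG00000027276) lies on the minus strand of chromosome 2 of GRCm38, from 137081456 to 137116644. In WT the lowest library had 20.7 CPM, the median was 26.5 and the highest had 28.9. In KO these values were 6.43, 7.75 and 11 CPM, and in KI they were 6.39, 7.87 and 11 CPM. The mutants thus overlapped each other and lay apart from WT. The mean was 25.7 ± 2.97 CPM (SD, n = 6) in WT, 3.11 times the mean of either mutant. The log2 fold change was -1.63 in KO (standard error 0.15) and -1.64 in KI (standard error 0.15), and -1.74 in KI without the library labelled KI 4.

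Neurl1a encodes a Neuralized-type E3 ubiquitin ligase that acts on Notch ligands. It had the most negative fold change of the 9 genes in both mutants. The gene (ENSMUSG00000006435) lies on the plus strand of chromosome 19, from 47178820 to 47259440. WT libraries had 25.3 CPM at the lowest, 28.8 at the median and 35.1 at the highest. KO libraries had 3.42, 6.86 and 7.69 CPM, and KI libraries had 5.34, 5.93 and 7.43 CPM. No mutant library came near the WT range. The WT mean of 29.6 ± 4.24 CPM (SD, n = 6) was 4.63 times the KO mean and 4.87 times the KI mean. The log2 fold change was -2.21 in KO (standard error 0.16) and -2.28 in KI (standard error 0.16), the latter also without the library labelled KI 4.

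Jag2, the other Jagged ligand, did not follow Jag1. Its level was between 5.14 and 6.99 CPM in WT (median 5.81), between 5.97 and 8.98 CPM in KO (median 8.78) and between 6.03 and 8.27 CPM in KI (median 7.04). The genotypes overlapped. Its log2 fold change was 0.44 in KO (standard error 0.13) and 0.24 in KI (standard error 0.13), or 0.22 without the library labelled KI 4.

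Notch1, a receptor, was higher in every mutant library than in any WT library. Notch1 (ENSMUSG00000026923) lies on the minus strand of chromosome 2, from 26457903 to 26516663. In WT it was scarce, with 10 to 29 counts per library. The level in WT was 0.474 CPM at the lowest, 1.0 at the median and 1.41 at the highest. In KO these values were 2.29, 3.03 and 4.85 CPM, and in KI they were 4.47, 5.87 and 7.85 CPM. Only the highest KO library, KO 2, and the lowest KI libraries overlapped. Means were 0.977 ± 0.339 CPM in WT, 3.30 ± 0.987 CPM in KO and 5.97 ± 1.32 CPM in KI (SD, n = 6 each), so that KO stood at 3.38 times WT and KI at 6.11 times WT. The log2 fold change was 1.75 in KO (standard error 0.24) and 2.60 in KI (standard error 0.24), or 2.62 without the library labelled KI 4.

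The other receptors differed less from WT. Notch2 lay between 4.62 and 6.58 CPM in WT (median 5.96), between 6.0 and 11.4 CPM in KO (median 7.94) and between 6.37 and 9.06 CPM in KI (median 7.57). Its log2 fold change was 0.54 in KO and 0.38 in KI (standard error 0.16 in each), with overlap between WT and each mutant. Without the library labelled KI 4 the difference in KI was 0.32, with a 95% interval of -0.02 to 0.65. Notch4, known mainly from endothelium, lay between 5.64 and 8.78 CPM in WT (median 5.89), between 4.02 and 6.76 CPM in KO (median 5.06) and between 3.93 and 7.51 CPM in KI (median 5.25). Its log2 fold change was -0.36 in KO and -0.27 in KI (standard error 0.17 in each), or -0.23 in KI without that library. Notch3 had 0 to 8 counts per library, and 8 of the 18 libraries were at or under the floor of 3 counts, which is 0.112 to 0.160 CPM before normalization and covers counting error only. No difference in Notch3 was detectable at this depth.

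Rbpj encodes the DNA-binding protein that all Notch receptors act through. Its level ran from 3.43 to 6.0 CPM in WT (median 4.59), from 4.46 to 7.73 CPM in KO (median 6.02) and from 3.83 to 7.45 CPM in KI (median 4.75). The genotypes overlapped, and the highest KI value came from the library labelled KI 4. The log2 fold change was 0.38 in KO (standard error 0.18) and 0.11 in KI (standard error 0.18), and without that library it was -0.04 in KI.

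Of the 2 target genes, Hey1 lay apart from WT in both mutants and Hes1 did not. Hey1, a repressor of the Hairy and Enhancer-of-split type, was lower in each mutant library than in any WT library, with 3.54 to 5.36 CPM in WT (median 4.11), 1.83 to 3.38 CPM in KO (median 2.66) and 1.32 to 3.47 CPM in KI (median 2.27). The WT mean of Hey1 was 1.61 times that of KO and 1.75 times that of KI. Its log2 fold change was -0.68 in KO and -0.80 in KI (standard error 0.21 in each), or -0.74 in KI without the library labelled KI 4. Hes1, a repressor of the same family, was at 0.568 to 1.04 CPM in WT (median 0.734), 0.491 to 1.44 CPM in KO (median 0.919) and 0.618 to 1.52 CPM in KI (median 1.09). These ranges overlapped, and the log2 fold change was 0.31 in KO (standard error 0.29) and 0.52 in KI (standard error 0.29), or 0.43 without that library.

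**Figure D1:**
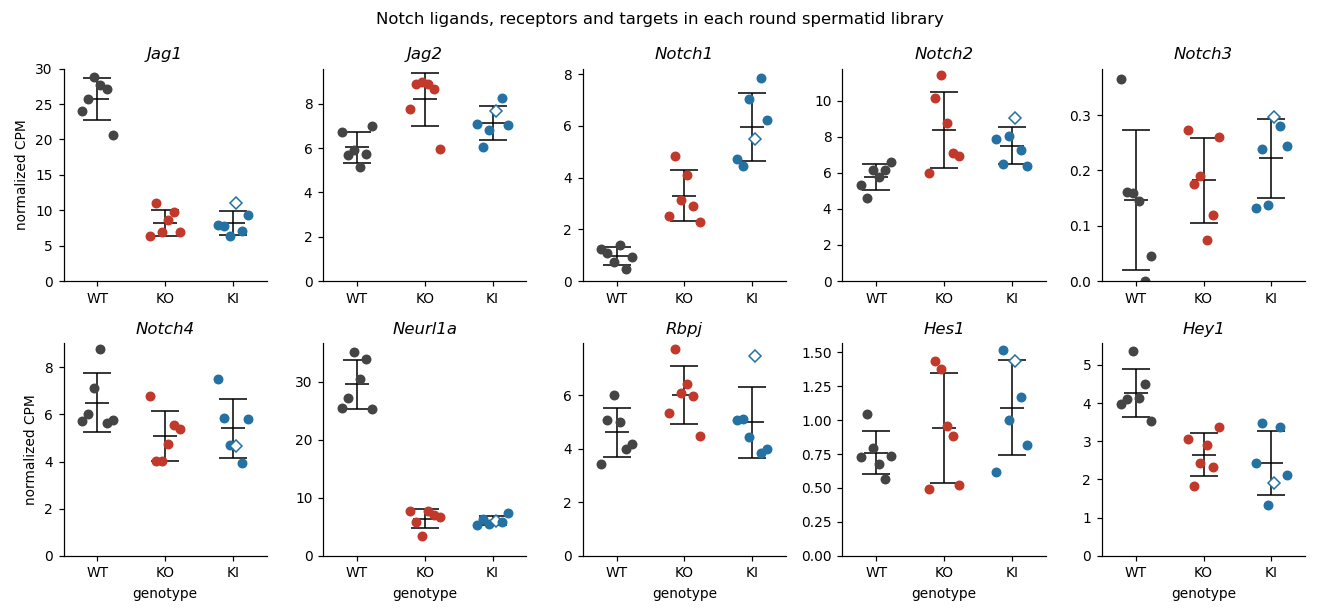
Normalized CPM (vertical axis, linear from 0, one scale per gene) of each of the 10 Notch genes in WT, KO and KI RS. Points are libraries, the open diamond is the library labelled KI 4, and bars show the mean and SD of 6 libraries. WT lies above every mutant library for Jag1, Neurl1a and Hey1 and below every mutant library for Notch1. The share of all genes with such a gap was not counted.

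Across the 9 genes, the test for any change by edgeR's quasi-likelihood model (adjusted p under 0.1 over all genes) called 3 higher and 3 lower in KO. Of all 21058 genes, 16.4% were called higher and 13.5% lower in KO. In KI it called 2 higher and 3 lower, against 16.1% and 15.4% of all genes. Without the library labelled KI 4, the count in KI was 1 higher and 3 lower. Past 1 log2 unit, 0 were called higher and 2 lower in KO, where 0.598% of all genes were higher and 1.13% lower, and 1 was called higher and 2 lower in KI, where 0.522% were higher and 1.43% lower. Since the genes were selected on these comparisons, nothing is read from the counts. The same holds for ranges that do not overlap with WT, whose share among all genes was not counted. The close pairs within a genotype were also summed, which left 12 libraries, with KO 2 and the library labelled KI 4 still apart. Then 1 gene was called higher for any change in KO, beside 8.11% of all genes, and 1 in KI, beside 7.02%. Past 1 log2 unit 1 was then lower in each mutant, beside 0.759% of all genes in each. The median log2 fold change of the 9 genes was 0.31 in KO and 0.11 in KI, beside 0.03 and 0.05 over all genes.

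**Figure D2:**
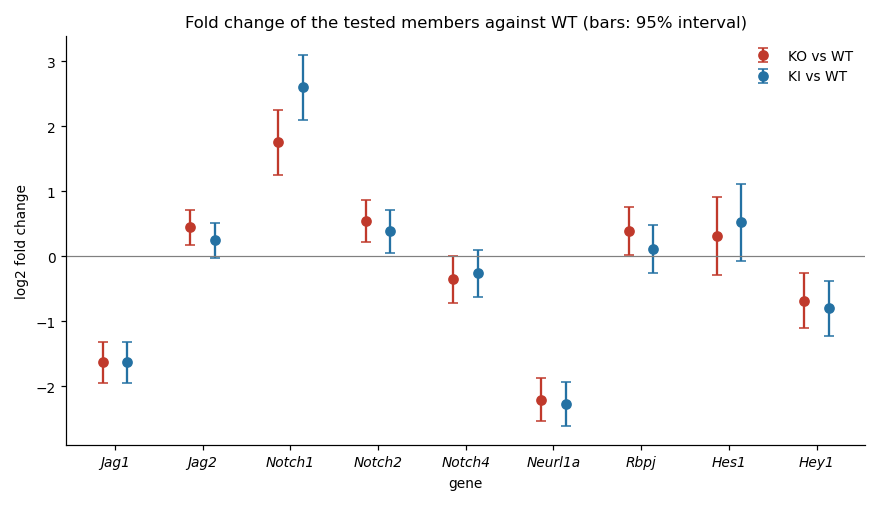
Log2 fold change (vertical axis) of the 9 tested Notch genes in KO (red) and KI (blue) against WT, with 95% intervals of the fit as bars. Both mutants are compared with the same WT libraries. Neurl1a and Jag1 lie lowest, at -2.21 and -1.63 in KO, and Notch1 highest, at 1.75 in KO and 2.60 in KI.

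To compare levels between genes, CPM was divided by the exon length in kilobases. In WT, Neurl1a (6.70 ± 0.96 CPM per kilobase; SD, n = 6) and Jag1 (4.41 ± 0.51) stood highest, with ranges that did not overlap. Hey1 followed at 1.31 ± 0.19, above every Jag2 value, although its lowest library overlapped with the highest of Notch4. Jag2 (0.866 ± 0.0996) and Notch4 (0.807 ± 0.154) could not be ordered beyond their spread. The ranges of Notch2 (0.535 ± 0.065), Hes1 (0.373 ± 0.0782) and Rbpj (0.361 ± 0.0724) overlapped too. Notch1 was lower still at 0.0686 ± 0.0238, and its range overlapped with that of Notch3 at 0.0182 ± 0.0157. In KO the gap at the top of this order had closed, with Neurl1a at 1.45 ± 0.364 CPM per kilobase, Jag1 at 1.42 ± 0.315 and Jag2 at 1.18 ± 0.169, whose ranges overlapped. Notch1 in KI, at 0.419 ± 0.093 CPM per kilobase, overlapped with Rbpj (0.391 ± 0.104) and Hes1 (0.537 ± 0.172).

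KI and KO were compared directly, a contrast that the choice of genes did not use. Notch1 was the gene that differed most, at 5.97 CPM in KI and 3.30 CPM in KO, 1.81 times higher in KI. The log2 difference was 0.85 (standard error 0.22, 95% interval 0.40 to 1.30), but it did not pass the threshold over all genes (adjusted p = 0.288, edgeR's quasi-likelihood test). Without the library labelled KI 4 it was 0.87 (standard error 0.23, adjusted p = 0.144, edgeR's quasi-likelihood test). An exact permutation test of the libraries, two-sided and not adjusted over genes, gave p = 0.00649 with 6 against 6 libraries and p = 0.013 without that library, where the smallest p possible is 0.00216 and 0.00433. The call depended on the method. With DESeq2 the adjusted p was 0.0255, and with no filter on low counts 0.0712 (edgeR). With the close pairs within a genotype summed it was 0.9998 (edgeR), with KO 2 and the library labelled KI 4 still on opposite sides.

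None of the 9 genes passed the threshold in KI against KO with edgeR's quasi-likelihood test, where 0.0997% of all genes did, or 0.522% without the library labelled KI 4. At an unadjusted p under 0.05 the count was 1 with all libraries and 2 without that library. The second was Rbpj, which was lower in KI by 0.42 on the log2 scale without that library (log2 difference -0.42, 95% interval -0.76 to -0.08, adjusted p = 0.434, edgeR's quasi-likelihood test) and by 0.27 with it (log2 difference -0.27, 95% interval -0.64 to 0.10). For Jag1 the interval of the log2 difference ran from -0.32 to 0.31, and for Neurl1a from -0.41 to 0.26, so the libraries leave room for differences between the mutants within these bounds. The intervals of Jag2, Notch2, Notch4, Hes1 and Hey1 all held 0 too.

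**Figure D3:**
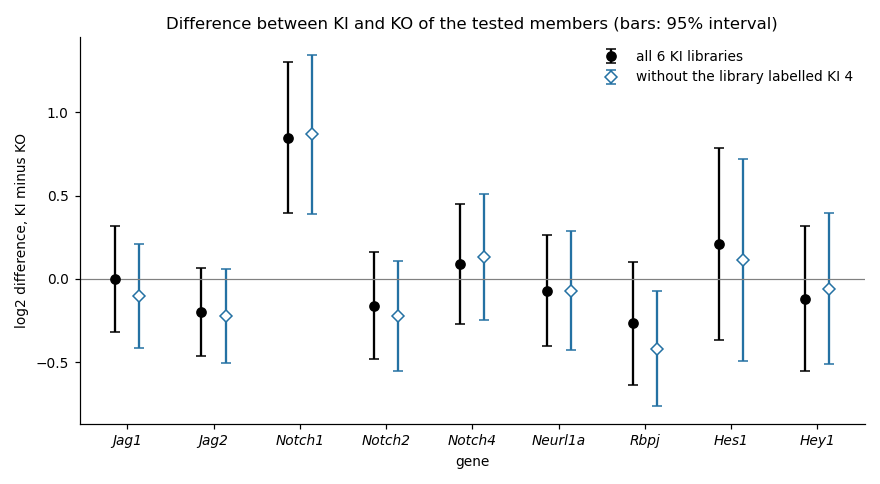
Log2 difference between KI and KO (vertical axis, KI minus KO) of the 9 tested Notch genes, with 95% intervals as bars, from all 6 KI libraries (filled circles) and without the library labelled KI 4 (open diamonds). Notch1 lies highest at 0.85 and 0.87, and without that library the interval of Rbpj, -0.76 to -0.08, lies below 0.

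Markers of other cell types were summed in the same libraries. The 8 markers of elongating spermatids, which include the protamine genes Prm1 and Prm2 and whose transcription begins in RS, were all lower in both mutants by edgeR's test for any change. Their summed level was 14805 to 20432 CPM in WT, 1748 to 4362 CPM in KO and 2297 to 3568 CPM in KI. Jag1, Neurl1a and Hey1 were lower in the same libraries, and the part of these markers' cells or stage in that difference was not tested. In bulk RNA, fewer cells of a type and less RNA per cell cannot be told apart.

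The 6 Leydig cell markers, which include the steroidogenic genes Cyp17a1 and Star, were also higher in the mutants, all 6 of them in both by edgeR's test for any change. Their summed level was 9.76 to 19.7 CPM in WT, 29.9 to 52.0 CPM in KO and 13.4 to 66.1 CPM in KI, with none at 0. Within KI the libraries with the least of these markers had the most Notch1. The sums were 13.4 CPM in KI 5, 16.6 CPM in KI 3 and 17.7 CPM in KI 6, all inside the WT range. Notch1 in these libraries was 7.85, 7.03 and 6.24 CPM, above the WT maximum of 1.41. In KI 1, KI 2 and the library labelled KI 4 the sums were 46.2, 66.1 and 49.5 CPM, and Notch1 was 4.72, 4.47 and 5.5 CPM. Within KO the library with the most of these markers, KO 2 (52.0 CPM), had the most Notch1 (4.85 CPM). The one with the least, KO 6 (29.9 CPM), had the least Notch1 (2.29 CPM). Between them the sums were 47.3, 47.2, 32.4 and 31.1 CPM in KO 5, KO 4, KO 1 and KO 3. Notch1 there was 2.92, 4.12, 2.51 and 3.13 CPM. Other lists split the KI libraries into the same sets. Spermatocyte marker sums were 1169, 1185 and 973 CPM in KI 5, KI 3 and KI 6. They were 804, 820 and 845 CPM in KI 1, KI 2 and the library labelled KI 4. Spermatogonial sums were lower in KI 5, KI 3 and KI 6 than in the rest of KI. RS marker sums were lower there too, at 694, 641 and 807 CPM in KI 5, KI 3 and KI 6. In KI 1, KI 2 and the library labelled KI 4 the RS sums were 888, 884 and 924 CPM. KI 1 with KI 2, KI 3 with KI 5 and KO 4 with KO 5 are close pairs, so these libraries may not be independent. For each of the other lists the summed ranges of the genotypes overlapped, although single markers were called for any change by edgeR's test. Of 8 Sertoli cell markers none was higher, and 2 were lower in KO and 1 in KI. Of 4 peritubular markers 2 were higher and 1 lower in KO, and 1 was higher and 1 lower in KI. Of 5 endothelial markers tested 2 were higher in KO and 1 in KI, with none lower. Of 6 macrophage markers 1 was higher and 1 lower in KO, and 3 were higher and 1 lower in KI. Of 7 spermatogonial markers 2 were higher in KO and 1 in KI, with none lower, and of 7 spermatocyte markers 3 were higher and 2 lower in KO, and 2 were higher and 1 lower in KI. Summed Sertoli cell markers were at 19.9 to 32.3 CPM in WT, 12 to 28.5 CPM in KO and 15.8 to 29.0 CPM in KI. Endothelial markers reached at most 6.68 CPM and peritubular markers at most 6.71 CPM in any library. Macrophage markers were at 8.23 to 13.4 CPM in WT, 8.56 to 17 CPM in KO and 12 to 20.3 CPM in KI. Spermatogonial markers were at 29.4 to 39.9, 33.1 to 70.6 and 20.8 to 72.9 CPM in the same order, and spermatocyte markers at 769 to 1038, 834 to 1044 and 804 to 1185 CPM. The part of any of these cells in the levels of the Notch genes was not tested.

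**Figure D4:**
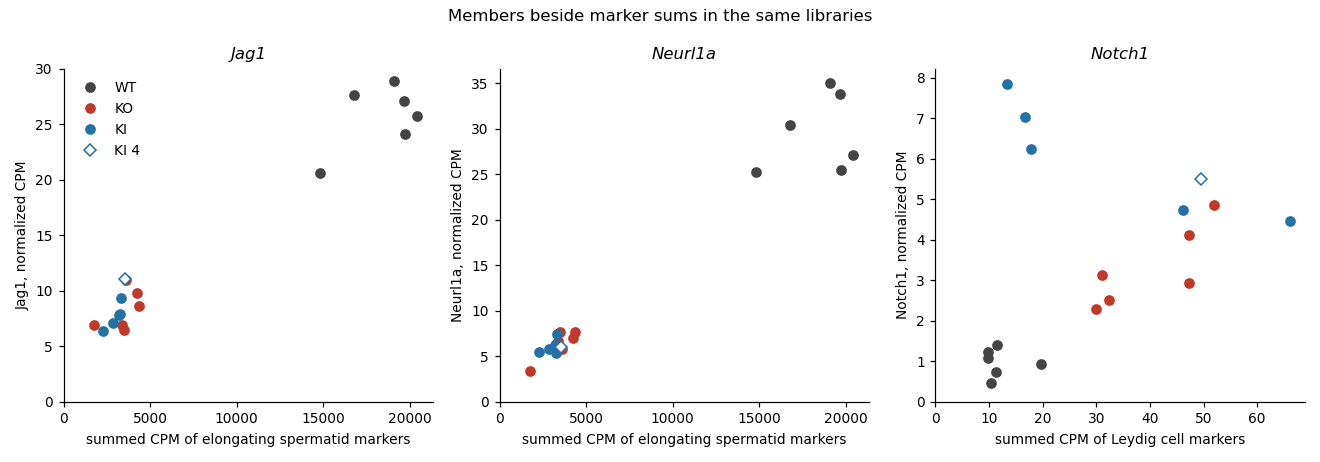
Normalized CPM of Jag1, Neurl1a and Notch1 (vertical axes) against the summed CPM of a marker list (horizontal axes) in each library, with WT in grey, KO in red, KI in blue and the library labelled KI 4 as an open diamond. The 6 WT libraries stand apart at the upper right for Jag1 and Neurl1a, and for Notch1 the KI libraries with the lowest Leydig marker sums, 13.4 to 17.7 CPM, lie highest. Within KO the library with the highest Leydig marker sum, 52.0 CPM, has the most Notch1, and the one with the lowest, 29.9 CPM, the least.

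A list of 62 other Notch pathway genes was tested in both mutants, and 50 of them passed the filter. In KO 16 rose, 3 fell and 31 were not called (edgeR's quasi-likelihood test for any change). In KI 14 rose, 2 fell and 34 were not called. The median log2 fold change of the 50 was 0.21 in KO and 0.22 in KI, beside 0.03 and 0.05 over all genes, and 32.0% and 28.0% rose, beside 16.4% and 16.1% of all genes. In both mutants 12 genes rose and 2 fell. Both were compared with the same WT libraries, and the share of all genes called in both was not counted, so nothing is read from this. None of the 50 was past 1 log2 unit by glmTreat or DESeq2, and at an unadjusted p under 0.05 the count was 0 in KO and 1 in KI. These counts treat all libraries as independent. With the close pairs summed, 2 of 53 genes tested were called higher in each mutant, or 3.77%. This is below the 8.11% of all genes called higher in KO and the 7.02% in KI, so the larger share called among pathway genes was not kept. Of the 8 pathway genes named here, Tle3, Numbl and Fbxw7 were then still called in both mutants and the other 5 in neither. Without WT 5 the count that rose in KO was 10, and without the library labelled KI 4 the count in KI was 14 rising and 2 falling, of 51 tested.

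Tle3, a Groucho-type corepressor, was at 115 to 160 CPM in WT, 49.0 to 76.2 CPM in KO and 45.6 to 71.6 CPM in KI, with no overlap between WT and the mutants. Tle3 fell by 1.14 log2 units in KO (edgeR's adjusted p = 2.29e-06) and by 1.29 in KI (edgeR's adjusted p = 3.56e-07), each with a standard error of 0.14. Of the 12 corepressors tested, 2 rose and 3 fell in KO and 1 rose and 2 fell in KI, where 13.5% and 15.4% of all genes fell. Kdm5a, a histone demethylase, rose by 0.35 log2 units in each mutant (adjusted p = 0.0119 in KO and 0.0109 in KI, edgeR).

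Among the 12 ubiquitin ligases and endocytic regulators, 7 rose in KO and 6 in KI, and none fell (edgeR's test for any change), where 16.4% of all genes rose in KO and 16.1% in KI. With the close pairs summed only 2 genes of the whole pathway list were still called higher, Numbl and Fbxw7. Numbl, which encodes a Numb-like adaptor that acts against Notch, went from 1.87 ± 0.326 CPM in WT to 3.13 ± 0.562 in KO and 3.67 ± 0.951 in KI (SD, n = 6 each). Numbl rose by 0.75 log2 units in KO (edgeR's adjusted p = 0.00465) and by 0.97 in KI (edgeR's adjusted p = 0.000393). Fbxw7, the substrate receptor of the ligase that degrades the Notch intracellular domain, went from 47.2 ± 4.55 CPM in WT to 69.5 ± 11.7 in KO and 71.7 ± 8.93 in KI, with no overlap between WT and the mutants. Fbxw7 rose by 0.56 log2 units in KO (edgeR's adjusted p = 0.00147) and by 0.60 in KI (edgeR's adjusted p = 0.000662).

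Of 9 receptor cleavage genes tested, 3 were called higher in each mutant, against the same 16.4% and 16.1% of all genes. They included the gamma-secretase subunits Aph1c, with a log2 fold change of 0.49 in KO and 0.50 in KI, and Ncstn, with 0.33 and 0.31. The adjusted p of Aph1c was 0.0317 in KO and 0.0288 in KI, and that of Ncstn was 0.0363 and 0.0474 (edgeR). With the close pairs summed no cleavage gene was called higher, although the fold changes stayed similar. They were then 0.51 in KO and 0.47 in KI for Aph1c, and 0.34 and 0.32 for Ncstn. Of 8 nuclear coactivators, 4 were called higher in each mutant. They included Snw1, a cofactor on RBPJ, at 0.50 and 0.48 (adjusted p = 0.0363 and 0.0426, edgeR), and Crebbp, a histone acetyltransferase, at 0.34 and 0.33 (adjusted p = 0.0613 in each, edgeR). With the close pairs summed no coactivator was called higher, while Snw1 was at 0.51 and 0.47 and Crebbp at 0.34 and 0.33. None of the 5 receptor glycosylation genes, the 2 ligands and decoys or the 2 further targets that passed the filter was called in either mutant.

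**Figure D5:**
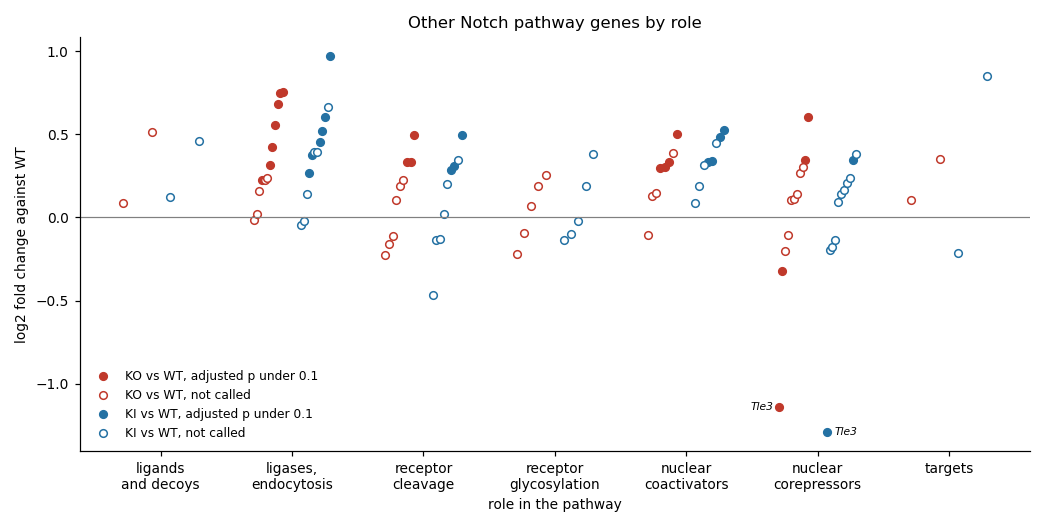
Log2 fold change against WT (vertical axis) of 49 other Notch pathway genes that passed the filter, by role, in KO (red) and KI (blue). Filled points have an adjusted p under 0.1 for any change (edgeR). Tle3, a corepressor gene, lies lowest of those drawn, at -1.14 in KO and -1.29 in KI.

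None of the tested genes beside Jag1 and Neurl1a on the chromosome was called in either mutant. Slx4ip, which lies 9505 bases from Jag1, differed from WT by 0.09 log2 units in KO and 0.24 in KI (edgeR's adjusted p = 0.705 and 0.190), and Gm14064 on the other side had 0.24 and -0.17 (adjusted p = 0.547 and 0.681, edgeR). Sh3pxd2a, which lies 733 bases from Neurl1a, had 0.43 and 0.08 (adjusted p = 0.174 and 0.854, edgeR), and Gm6970 had -0.10 and -0.07 (adjusted p = 0.805 and 0.858, edgeR). On the sides of Notch1, Sec16a rose by 0.38 and 0.47 log2 units (adjusted p = 0.0394 and 0.0106, edgeR), and Egfl7, an endothelial gene, fell by 1.09 and 1.40 (adjusted p = 0.00777 and 0.0011, edgeR). The antisense gene 0610009E02Rik, named after its values were seen because it overlaps the 3′ end of Notch1, had -0.01 and 0.16 (adjusted p = 0.973 and 0.535, edgeR), and reads were counted by strand.

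The 3 genes whose pattern over the 18 libraries was nearest to that of each of Jag1, Neurl1a and Notch1 were found by the root mean square difference of log2(CPM + 0.5), each gene set to 0 at its own WT mean. For Jag1 they were Slc30a4, a zinc transporter gene (difference 0.107), Prkcd, a protein kinase C gene (0.118), and Gm36584 (0.155). Slc30a4 went from 93.9 CPM in WT to 32.0 in KO and 29.1 in KI. For Neurl1a they were Ttc7 (0.172), Gsg1, a germ cell-specific gene (0.177), and Knstrn, a spindle gene (0.196). Ttc7 went from 86.7 CPM in WT to 21.1 in KO and 20.5 in KI. For Notch1 the nearest lay farther away. They were Sstr3, a somatostatin receptor gene (0.318), Tarsl2, a threonyl-tRNA synthetase gene (0.372), and Gm4316 (0.372). In WT, Sstr3 (0.136 ± 0.118 CPM) and Gm4316 (0.0911 ± 0.124 CPM) were near the floor, where the added 0.5 shrinks differences. Their fitted log2 fold changes in KO and KI were 3.44 and 4.21, and 3.29 and 4.52, beside 1.75 and 2.60 for Notch1. Notch1 was itself scarce in WT, and the part of this in its distances was not tested. Tarsl2 went from 7.13 CPM in WT to 25.4 in KO and 28.5 in KI. Among the 9 Notch genes themselves, Jag2 and Notch2 were the nearest pair, at 0.217, while Jag1 and Neurl1a stood 0.548 apart.

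The sites in these transcripts are shown for 3 of the miRNAs that the study named or listed as pairing with Jag1 or Notch1. The mature sequences are RefSeq's, with the seed, bases 2 to 8, in capitals. Their levels were not analysed here.
mmu-miR-26a-5p: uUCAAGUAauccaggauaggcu
mmu-miR-34a-5p: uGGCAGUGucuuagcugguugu
mmu-miR-146b-5p: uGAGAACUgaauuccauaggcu
The 3 seeds differ from each other. The 3′ untranslated region of Jag1-201, of 1568 bases in GENCODE M21, held 1 match to the miR-26a-5p seed and 1 to the miR-34a-5p seed, and that of Notch1-201, of 1628 bases, held 3 matches to the miR-34a-5p seed and 1 to the miR-146b-5p seed. Capitals mark the 7 bases that pair with the seed, 5′ to 3′ on the transcript.
Jag1, miR-26a-5p, chr2:137081724-137081746: cataagctagttgaaTACTTGAa
Jag1, miR-34a-5p, chr2:137081670-137081692: atttgccgtagagtaCACTGCCt
Notch1, miR-34a-5p, chr2:26459337-26459359: tattttccacagaaaCACTGCCt
Notch1, miR-34a-5p, chr2:26459066-26459088: cccctcccccacactCACTGCCc
Notch1, miR-34a-5p, chr2:26458724-26458746: gcctcctagagaaaaCACTGCCt
Notch1, miR-146b-5p, chr2:26459263-26459285: ccaagaaaataaactAGTTCTCa
Among genes whose longest 3′ untranslated region was within 20% of these lengths, 10.5% held a match to the miR-26a-5p seed at the length of Jag1. For miR-34a-5p the share was 17.5% at the length of Jag1 and 18.3% at that of Notch1, and for miR-146b-5p it was 12.3% at that of Notch1. All the Notch1 sites lie in the stretch that the antisense gene 0610009E02Rik overlaps. Gene counts do not separate transcripts, so whether the reads came from transcripts with these regions was not tested.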

How the data were processed

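RNA was sequenced from 18 libraries of isolated RS, 6 per genotype, grouped by their labels. The authors used cutadapt 3.4 for trimming, STAR 2.7.8a for alignment to GRCm38, and featureCounts (Subread 2.0.1) to count uniquely assigned read pairs by strand on GENCODE M18 genes, duplicates included. The deposited file holds raw counts and was used unchanged, and the number of its value columns with no library was 0. Symbols came from GENCODE M21, which named 54079 of 54232 genes. Gene positions and exon lengths were those deposited with the counts. The 3′ untranslated regions came from GENCODE M21, and promoters and miRNAs from RefSeq (GRCm38.p6).

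The Notch genes and the lists were chosen with earlier results of these data known. Genes were filtered with filterByExpr and scaled with TMM, and edgeR 4.0.16 (R 4.3.3) fitted 1 quasi-likelihood model with genotype as its term to all 18 libraries. Any change was tested with glmQLFTest and changes past 1 log2 unit with glmTreat, at a Benjamini-Hochberg adjusted p under 0.1. The method was tested on simulated data. Alternatives were DESeq2 1.42.0, its size factors, other filters, a model of the 2 genotypes compared and the replicate block. Others were close pairs within a genotype summed, a threshold of 0.05 and leaving out each library. The exact permutation test on log2(CPM + 0.5) was chosen after seeing the data.

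Genes named in the text were Ddx25, the 10 Notch genes, in each role the 2 largest rises and falls among pathway genes called in both mutants, any past 1 log2 unit, the nearest tested gene on each side of Jag1, Notch1 and Neurl1a, and the 3 genes nearest to each in pattern. A gene that this rule selects is in the counts but is not reported here. Figures were drawn with matplotlib 3.10.9. Totals of 18766971 to 26776555 counts give a floor of 0.112 to 0.160 CPM.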

Additional observations from a re-analysis of the deposited data

Results flagged for a closer look

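Of 30 sets of 6 libraries (each of the 10 Notch genes in each genotype), 1 held a library whose distance from its nearest neighbour passed Dixon's critical value of 0.625, and chance flags about 1 set in 20. Rbpj was at 7.45 CPM in the library labelled KI 4, while the other 5 KI libraries lay between 3.83 and 5.11 CPM. The KO libraries lay between 4.46 and 7.73 CPM, and Ddx25 in the same library, at 56.9 CPM, was inside the KO range.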

How the results depend on the processing

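The fold changes of the 9 Notch genes against WT moved by less than the SD between libraries in all 448 values refitted for KO and KI, and 371 of 400 values of the 8 named pathway genes kept both direction and call, with 29 no longer past the threshold. The number of other pathway genes called higher in KO, 16, was 6 with no filter on low counts and 2 with close pairs summed. It was 10 at an adjusted p of 0.05 and 10 to 17 when single libraries were left out. In KI, 14 became 2 with close pairs summed. With close pairs summed, the Notch genes higher for any change numbered 1 in KO in place of 3 and 1 in KI in place of 2, and those lower past 1 log2 unit 1 in each in place of 2. With no filter, 1 was higher in KI. Leaving out single libraries gave 1 to 3 higher in KI, and 0 to 1 higher past 1 log2 unit in KO, with 1 without WT 4, KO 1 or KO 6. In KI, 1 in place of 2 was higher without WT 1, WT 2, WT 4, KI 1, KI 3 or the library labelled KI 4. In KI against KO, DESeq2 and no filter each called 1 gene, Notch1, at log2 differences of 0.89 and 0.91. Across 25 refits this difference ran from 0.75 to 0.99. Jag1, near 0 in KI against KO, changed sign to 0.0366 with DESeq2 size factors, 0.0347 with DESeq2, 0.0527 with no filter, 0.0565 with only the 2 genotypes, 0.00892 with the replicate block and 0.126 with close pairs summed. Neurl1a became 0.0326 with close pairs summed. With single libraries left out, Jag1 ran from -0.104 to 0.0948, Neurl1a ran from -0.200 to 0.00236, Notch4 ran from -0.0263 to 0.186 and Hey1 from -0.252 to 0.00375.

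Same-numbered libraries of different genotypes did not all vary together (correlations of -0.50 to 0.54), and not every library correlated best with its own number, so the numbers were not taken as pairs. With the replicate block, 15 other pathway genes were higher and 3 lower in KO and 14 and 2 in KI, and the adjusted p of Notch1 in KI against KO was 0.434 (edgeR). Depth limits Notch3, Hes1 and, in WT, Notch1, with 0 to 8, 9 to 38 and 10 to 29 counts per library.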
